A study of Mus musculus with 4 samples.

Results

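The mitochondrially encoded genes are those that lie on the mitochondrial chromosome, chrM, and they were taken here as every gene whose GENCODE M21 symbol starts with mt-. Of the 37 genes that this annotation places on chrM, 13 had values among the 34866 genes of the expression table, and all 13 encode proteins. The other 24 genes, 2 for ribosomal RNAs and 22 for transfer RNAs, were not analysed here. RNA was sequenced from spleen cells of 2 λ-MYC Tom+/ki mice, each with an IgM+Tom+ tumor (tumors #1 and #2). From each mouse the B220+ IgM+ cells were sorted into a Tom+ and a Tom- fraction, so that there were 4 libraries, 1 per fraction and tumor, and the Tom+ and Tom- libraries of a tumor came from the same animal.

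All 4 libraries shared the λ-MYC transgene, in which a translocated MYC gene of a human Burkitt lymphoma line stands under immunoglobulin λ light chain regulatory sequences, a knock-in allele that expresses Cre recombinase, and the R26tdTom allele. In this model Cre switches tdTomato on for good, so Tom+ cells have expressed Cre at some time and need not express it when sorted. Tom- cells of the same tumor are therefore the control, and there was no spleen without a tumor and no mouse without the transgene among the libraries. The ages of the 2 mice are not given in the sources used here.

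The mitochondrial chromosome is a small circle that most cells carry in many copies. It is transcribed from both strands into long precursors, which are cut at the transfer RNAs between the genes and mostly polyadenylated. The 13 mRNAs encode membrane subunits of the respiratory chain and of ATP synthase, and every other subunit, as well as every protein of the mitochondrial ribosome, is encoded in the nucleus. The genes have no introns, and some of them overlap or end without a complete stop codon. In a poly(A) library the summed level of these mRNAs is often read as a sign of sample quality as well as of mitochondrial content.

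The sequences behind the values are shown first, because they set which reads belong to which gene. They were read from the GENCODE M21 transcripts on GRCm38, 5′ to 3′. Genes mt-Atp8 and mt-Atp6 are carried by 1 mRNA and overlap by 43 bases (chrM:7927-7969), and mt-Nd4l and mt-Nd4 are carried by another and overlap by 7 bases (chrM:10167-10173). The ends of the upstream gene of each pair, at chrM:7912-7969 and chrM:10137-10173 on the plus strand, are given with the start codon of the downstream gene in capitals.
mt-Atp8: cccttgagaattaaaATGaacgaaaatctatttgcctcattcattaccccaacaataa
mt-Nd4l: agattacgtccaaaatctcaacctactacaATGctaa

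The annotated transcripts of mt-Co3 (784 bases), mt-Nd4 (1378 bases) and mt-Cytb (1144 bases) are not whole numbers of codons. Each ended in a single T, in capitals below, and it is textbook knowledge that the poly(A) tail completes such a stop codon. The last 30 bases of each are shown, at chrM:9361-9390, chrM:11515-11544 and chrM:15259-15288 on the plus strand.
mt-Co3: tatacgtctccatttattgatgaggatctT
mt-Nd4: gtccaaaactaattacaggcctgacaataT
mt-Cytb: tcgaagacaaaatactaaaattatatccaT

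Parts of the mitochondrial sequence also lie in the nuclear genome as pseudogenes, and 2 of these were listed at levels as high as those of real mitochondrial mRNAs. Gm29216 (chr1:24615706-24616197, minus strand) matched the last 483 bases of mt-Co1 with 1 difference, and Gm28438 (chr1:24612775-24613119, minus strand) matched the first 345 bases of mt-Nd3 with 1 difference. With positions counted from 1 at the 5′ end of the mitochondrial transcript, and the mitochondrial base written first, these differences were A1066T (chrM position 6393) and T3C (chrM position 9461). They are the capitals in the stretches below, which lie inside the matches and come from chrM:6390-6418 and chr1:24616160-24616188 for the first pair and from chrM:9459-9486 and chr1:24613092-24613119 for the second.
mt-Co1: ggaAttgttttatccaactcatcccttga
Gm29216: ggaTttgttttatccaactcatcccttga
mt-Nd3: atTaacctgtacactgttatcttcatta
Gm28438: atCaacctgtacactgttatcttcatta

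The libraries carried the labelled cell type. The B cell markers Cd79a, Cd79b, Ms4a1 and Cd22, and the general leukocyte gene Ptprc, were present in every library. The lowest value was 20.5 TPM for Ms4a1 in Tom+ cells of tumor #1. These 5 genes were lower in Tom+ than in Tom- cells of both tumors, and higher in tumor #2 than in tumor #1 in both fractions. Of the T cell markers Cd3e was at or below 0.0688 TPM in all libraries and Cd3d reached 7.77 TPM in Tom- cells of tumor #2, and of the myeloid markers none exceeded 3.003 TPM. Hbb-bs was listed at 18.8 TPM (Tom-) and 16.1 TPM (Tom+) in tumor #1, against 0 and 0.699 TPM in tumor #2, while Hba-a1 and Hba-a2 were at 0 in all 4. The part of these differences between libraries in the results below was not tested.

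Levels are given as TPM, an estimate of transcript abundance per length of transcript that sums to the same total in each library. A gene's TPM is thus its share of that total and not of the reads. A share of the library means a share of the summed TPM throughout. The 13 mRNAs were among the most abundant of all genes. Together they took 6.61% of the summed TPM in the Tom- and 8.67% in the Tom+ fraction of tumor #1, against 14.5% (Tom-) and 15.6% (Tom+) in tumor #2. The 2 libraries of tumor #2 were both above the 2 libraries of tumor #1, and within each tumor the Tom+ library was the higher of the pair. In bulk samples, more of these transcripts per cell and less of all other RNA cannot be told apart.

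**Figure D1:**
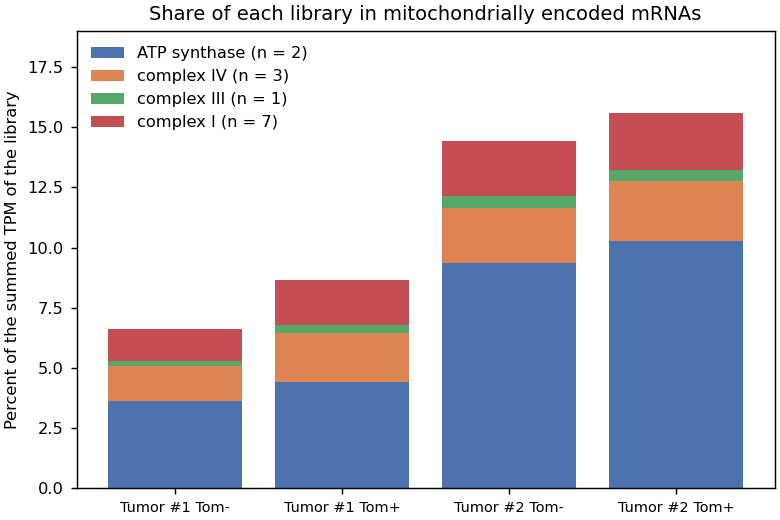
Percent of the summed TPM of each library (vertical axis) taken by the mitochondrially encoded mRNAs, stacked by the complex that their proteins belong to, for the 4 libraries. The full bars reach 6.61%, 8.67%, 14.5% and 15.6%, and the genes for ATP synthase make up the largest segment in every library.

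By listed TPM, which is per length of transcript, the genes for ATP synthase ranked highest. With TPM multiplied by annotated length, mt-Co1 took more of the members' sum than mt-Atp8 in Tom+ cells of tumor #1 (16.0% against 13.1%). It took less in every other library. Gene mt-Atp8 (chrM:7766-7969, 204 bases), which encodes a small membrane subunit of ATP synthase, was listed at 28346 TPM (Tom-) and 33377 TPM (Tom+) in tumor #1, against 74712 and 83642 TPM in tumor #2. It had the highest TPM of all genes in every library. Gene mt-Atp6 (chrM:7927-8607), which encodes the subunit that forms the proton channel, followed with 7888 and 10697 TPM in tumor #1, against 18769 and 19114 TPM in tumor #2. Both were higher in each library of tumor #2 than in either library of tumor #1.

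The cytochrome c oxidase (complex IV) mRNAs came next. Gene mt-Co2 (chrM:7013-7696), whose protein accepts electrons from cytochrome c, was at 5174 TPM (Tom-) and 8039 TPM (Tom+) in tumor #1, against 9764 and 10238 TPM in tumor #2. Gene mt-Co3 (chrM:8607-9390) was at 5914 and 7041 TPM in tumor #1, against 7247 and 7892 TPM in tumor #2, the narrowest range of the complex. These genes exchanged the third and the fourth place among the members between libraries. Gene mt-Co1 (chrM:5328-6872), which encodes the catalytic subunit, was at 3528 and 5386 TPM in tumor #1, against 6162 and 6807 TPM in tumor #2, and took the fifth place in every library.

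Cytochrome b, from mt-Cytb (chrM:14145-15288), is the mitochondrially encoded subunit of complex III. Its mRNA was at 2158 TPM (Tom-) and 3392 TPM (Tom+) in tumor #1, against 4651 and 4712 TPM in tumor #2. The value of Tom- cells of tumor #1 stood lowest, as it did for 11 of the other members, and the 2 values of tumor #2 lay close together.

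The complex I genes encode subunits of its membrane arm. Gene mt-Nd4l (chrM:9877-10173) was the highest of these by listed TPM, at 3470 TPM (Tom-) and 4705 TPM (Tom+) in tumor #1, against 5759 and 5931 TPM in tumor #2. Gene mt-Nd1 (chrM:2751-3707), whose protein lies at the quinone site, was at 2861 and 4266 TPM in tumor #1, against 4746 and 4685 TPM in tumor #2. It was 1 of 2 members in which Tom+ cells of tumor #2 were not above Tom- cells. Gene mt-Nd6 (chrM:13552-14070) is the sole member on the minus strand, and was at 1870 and 3121 TPM in tumor #1, against 3600 and 4092 TPM in tumor #2.

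The remaining complex I genes were the lowest members by listed TPM, before nuclear copies are added. Gene mt-Nd3 (chrM:9459-9806) was at 1658 TPM (Tom-) and 1630 TPM (Tom+) in tumor #1, against 3219 and 2799 TPM in tumor #2. Its Tom+ value was the lower in both pairs, which held for no other member. Genes mt-Nd4 (chrM:10167-11544), mt-Nd2 (chrM:3914-4951) and mt-Nd5 (chrM:11742-13565) encode the subunits that resemble ion antiporters. Gene mt-Nd4 was at 1281 and 2043 TPM in tumor #1, against 2556 and 2725 TPM in tumor #2, mt-Nd2 at 1123 and 1681 TPM and then 1551 and 1574 TPM, and mt-Nd5 at 852 and 1285 TPM and then 1717 and 1860 TPM. For mt-Nd2 alone, the libraries of tumor #2 did not lie above both libraries of tumor #1.

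**Figure D2:**
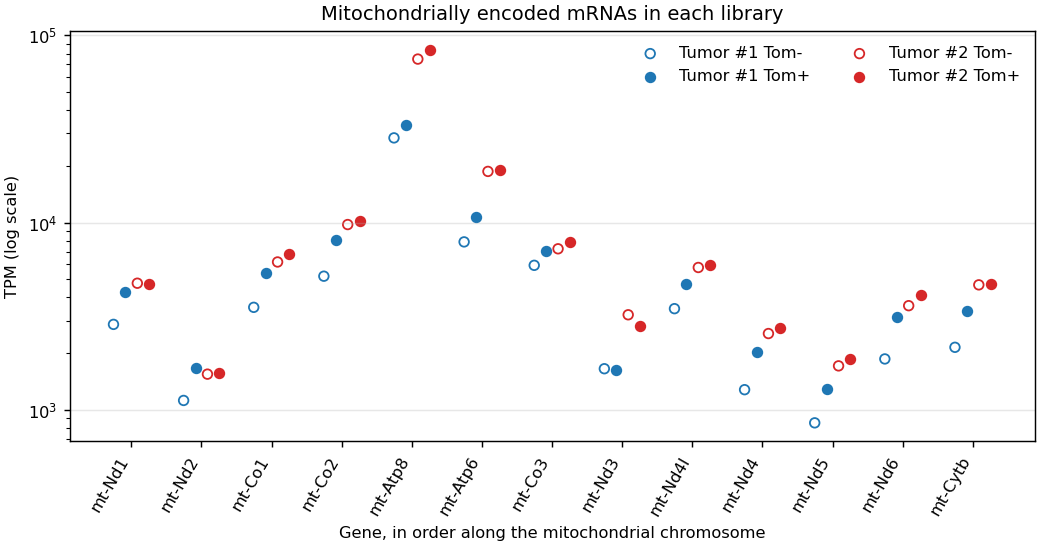
TPM on a log scale (vertical axis) of the 13 mitochondrially encoded mRNAs, ordered along the mitochondrial chromosome, in Tom- cells (open circles) and Tom+ cells (filled circles) of tumor #1 (blue) and tumor #2 (red). The values run from 852 TPM for mt-Nd5 to 83642 TPM for mt-Atp8, and the order of the genes is much the same in the 4 libraries.

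The order of the members differed little between libraries. Across the 13 genes the Spearman correlation of TPM between any pair of libraries lay between 0.967 and 0.995, a description over genes that share their precursors and their libraries. By listed TPM, mt-Atp8 was the first, mt-Atp6 the second, mt-Co1 the fifth, mt-Nd4l the sixth and mt-Nd6 the ninth in all 4. The neighbours mt-Co3 and mt-Co2, and mt-Nd1 and mt-Cytb, exchanged places, so that their levels were not separated beyond the spread between libraries. Among the lowest, mt-Nd3 exchanged places with mt-Nd4 and mt-Nd2, and mt-Nd2 with mt-Nd5, while mt-Nd4 lay above mt-Nd2 and mt-Nd5 in all 4. With the nuclear pseudogene copies summed, mt-Co1 was at 7789, 12512, 17909 and 19631.5 TPM (Tom- then Tom+ of tumor #1, then of tumor #2). The sum for mt-Atp6 was 8460, 11026, 18930 and 19122.5 TPM, so that by plain sums mt-Co1 lay above it in Tom+ cells of both tumors. This order was not kept with copies weighted by annotated length. The weighted mt-Co1 was at 4889, 7660.5, 9910 and 10897 TPM, below the weighted mt-Atp6 (8457, 11024, 18929 and 19122.5 TPM) in all 4. The sum for mt-Nd3 was 3651, 4087, 5767 and 5977 TPM, near the values of mt-Nd4l.

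The composition of the mitochondrial pool nevertheless differed between the tumors. Of the summed TPM of the members, mt-Atp8 took 42.9% (Tom-) and 38.5% (Tom+) in tumor #1, against 51.7% and 53.6% in tumor #2, while mt-Co3 took 8.94% and 8.13% against 5.02% and 5.06%. The 2 tumors did not overlap in either share, and each is 1 mouse. The 7 complex I genes together took 19.8% and 21.6% in tumor #1 and 16.0% and 15.2% in tumor #2, and the 3 complex IV genes 22.1% and 23.6% against 16.0% and 16.0%. These shares are parts of 1 sum, so a higher share of mt-Atp8 lowers those of the others. In TPM the complex I sum was 13115 and 18730 in tumor #1, against 23148 and 23666 in tumor #2. The complex IV sum was 14616 and 20466 TPM against 23172 and 24937 TPM. When TPM was multiplied by the annotated length, which turns molecules into bases, mt-Atp8 took 15.6%, 13.1%, 20.96% and 22.1% in the same order of libraries, and mt-Co1 took 14.7%, 16.0%, 13.1% and 13.6%. The annotated mt-Atp8 is 204 bases long, short beside the fragments of an RNA library, and how its effective length was set is not given in the sources used here.

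Genes of 1 mRNA were not listed at equal TPM. The TPM of mt-Atp8 was 3.59 and 3.12 times that of mt-Atp6 in the Tom- and Tom+ fractions of tumor #1, against 3.98 and 4.38 times in tumor #2. For mt-Nd4l and mt-Nd4 the ratio was 2.71 and 2.30 in tumor #1 and 2.25 and 2.18 in tumor #2. In both pairs the shorter, upstream gene was the higher in all 4 libraries. The part of transcript length and of the near-identical nuclear copies in these ratios was not tested.

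Tom+ and Tom- cells of the same tumor were compared to ask whether cells with a history of Cre expression differ from the others. Of the 13 mRNAs, 11 were higher in Tom+ cells of both tumors, as were 21.6% of the 11339 genes tested, and 1 was lower in both, as were 29.5%. The count of 11 was 6 under quantile normalization and 12 under 4 other scalings of the libraries. The differences were mostly those of tumor #1, where the median of the members was 0.58 on the log2 scale, against 0.07 in tumor #2, beside -0.0029 and -0.06 for all genes. None of the 13 passed an adjusted p of 0.05 in limma with the tumor as block, as did 0% of all genes, and the smallest adjusted p of any gene was 0.936. At an unadjusted p under 0.05 limma called 4.67% of all genes, 231 higher and 299 lower, and 0 of the 13.

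Gene mt-Nd6 had the largest fitted difference, 0.46 (SE 0.188, limma, unadjusted p = 0.0858, adjusted p = 0.936), with Tom+ cells 1.67-fold higher in tumor #1 and 1.14-fold in tumor #2. The catalytic complex IV gene mt-Co1 followed mt-Nd4 (0.38, SE 0.194) with 0.38 (SE 0.169, unadjusted p = 0.106, adjusted p = 0.936 by limma). In tumor #1 the Tom+ library was 1.49- to 1.67-fold above the Tom- library for 8 members, namely mt-Nd1, mt-Nd2, mt-Co1, mt-Co2, mt-Nd4, mt-Nd5, mt-Nd6 and mt-Cytb. It was 1.36-fold higher for mt-Atp6 and mt-Nd4l, 1.18-fold for mt-Atp8 and 1.19-fold for mt-Co3. In tumor #2 the members ranged from 0.869-fold for mt-Nd3 to 1.14-fold for mt-Nd6.

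Gene mt-Nd3 had the lowest fitted difference, -0.11 (SE 0.118, adjusted p = 0.937 by limma), and the direction was the opposite once its nuclear copy was added. The part of the division of reads between them was not tested. The sum of mt-Nd3 and Gm28438 was 3651 TPM (Tom-) and 4087 TPM (Tom+) in tumor #1, against 5767 and 5977 TPM in tumor #2, with a fitted difference of 0.11. The share of the library was 2.05 percentage points higher in Tom+ cells of tumor #1 and 1.16 points higher in those of tumor #2 (2.14 and 2.04 points with immunoglobulin genes left out), a mean of 1.61 ± 0.631 (SD, n = 2 tumors), and the exact permutation test within pairs gave p = 0.5, the smallest that 2 pairs allow. Without mt-Atp8 these differences were 1.55 and 0.269 points, so that most of the difference in tumor #2 was in that gene.

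**Figure D3:**
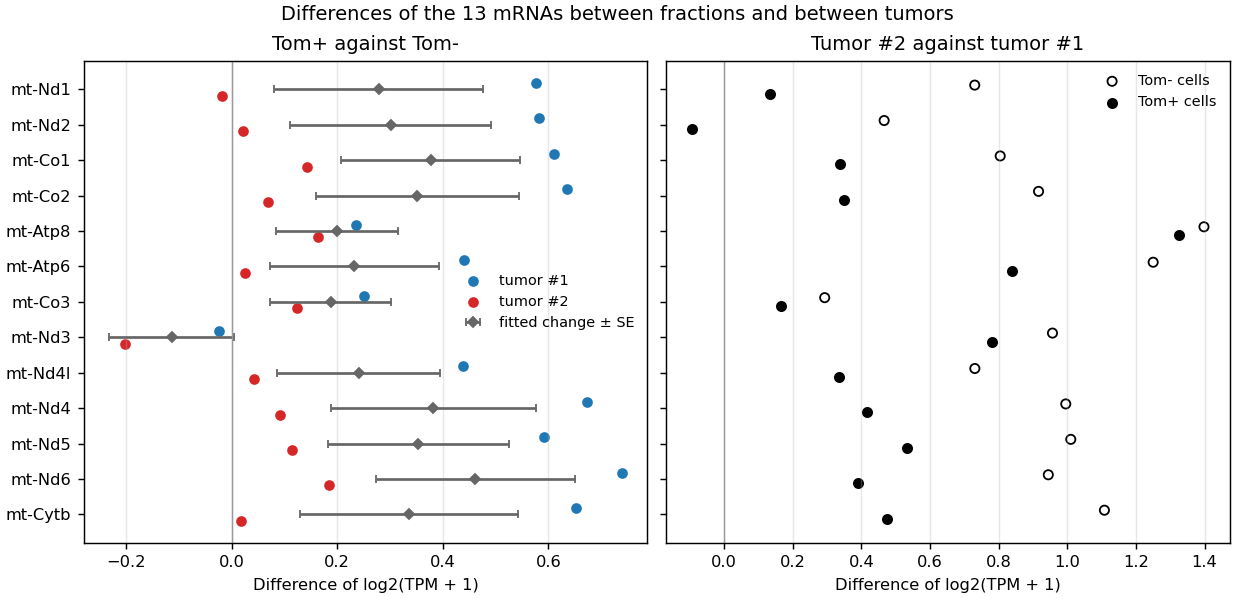
Differences of log2(TPM + 1) of the 13 mRNAs. Left, Tom+ against Tom- cells in tumor #1 (blue) and tumor #2 (red), with the limma estimate and its standard error in grey. Right, tumor #2 against tumor #1 in Tom- cells (open) and Tom+ cells (filled). In tumor #1 the differences between fractions run from -0.02 for mt-Nd3 to 0.74 for mt-Nd6, those of tumor #2 lie nearer 0, and mt-Atp8 shows the largest difference between tumors in both fractions.

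Grouped by complex, the summed TPM in Tom+ over Tom- cells differed by 0.65 on the log2 scale in tumor #1 for complex III, 0.51 for complex I, 0.49 for complex IV and 0.28 for ATP synthase. In tumor #2 the order was not kept, with 0.14 for ATP synthase, 0.11 for complex IV, 0.03 for complex I and 0.02 for complex III. The sum of the 12 plus-strand mRNAs differed by 0.38 and 0.11 in the 2 tumors, and the minus-strand mt-Nd6 by 0.74 and 0.18. The methods do not say whether the libraries kept the strand of the RNA. The mt-Nd6 values are thus not shown to be those of minus-strand RNA alone. In tumor #1, the 6 members of at least 900 bases differed by 0.58 to 0.67 and the 7 shorter ones by -0.02 to 0.74. The Spearman correlation of annotated length with the difference across the 13 genes was 0.54 in tumor #1 and -0.01 in tumor #2, a description over genes that share their libraries.

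The tumors are 1 mouse each, so tumor #2 and tumor #1 can be described but not tested. In Tom- cells all 13 mRNAs, and in Tom+ cells all but mt-Nd2, were higher in tumor #2, so that 12 of 13 were higher in both fractions, beside 49.6% of all genes. The median difference of the members was 0.94 in Tom- and 0.39 in Tom+ cells, beside 0.23 and 0.19 for all genes. At least 2-fold higher in both fractions was 1 member, mt-Atp8, beside 11.8% of all genes. With trimmed-mean scaling, which brought the median of all genes to 0.05 and 0.04, the medians of the members were 0.75 and 0.23, and 11 were higher in both fractions, as mt-Nd1 was then lower in Tom+ cells.

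Gene mt-Atp8 was 2.64-fold higher in tumor #2 in Tom- cells and 2.51-fold in Tom+ cells, and mt-Atp6 was 2.38- and 1.79-fold higher. For mt-Cytb and mt-Nd5 the difference was 2.16- and 2.02-fold in Tom- cells and 1.39- and 1.45-fold in Tom+ cells. The complex IV gene mt-Co3 differed least in Tom- cells, by 1.23-fold, and by 1.12-fold in Tom+ cells. Gene mt-Nd2 was 1.38-fold higher in Tom- and 0.936-fold in Tom+ cells, and mt-Nd1 1.66- and 1.10-fold. Every member had the larger difference between tumors in the Tom- fraction, which is the same arithmetic as the larger Tom+ difference in tumor #1, since all values come from the same 4 libraries.

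Reads that fit both a mitochondrial mRNA and a nuclear pseudogene have to be divided between them. A search of the GENCODE M21 transcripts found 11 nuclear genes that matched a member at 95% identity or more over at least 100 bases. Of these, 7 lay side by side on chromosome 1 between 24611535 and 24616197, on the minus strand, 3 on chromosome 2 and 1 on chromosome 13. Any read of 60 bases from mt-Co2 also occurred in a nuclear gene, as did 99.9% of those of mt-Co3, 99.5% of mt-Atp6, 98.7% of mt-Nd4l, 97.9% of mt-Nd3, 61.9% of mt-Nd4, 46.5% of mt-Co1, 7.15% of mt-Nd2 and 4.42% of mt-Nd5. For mt-Nd1, mt-Atp8, mt-Nd6 and mt-Cytb the share was 0, and no such stretch was shared between members. These 4 genes alone took 3.52% and 4.42% of the library in the Tom- and Tom+ fractions of tumor #1, against 8.77% and 9.71% in tumor #2, the same order as all 13. Most of this was mt-Atp8, at 2.835% and 3.338% in tumor #1 and 7.471% and 8.364% in tumor #2, which is also the largest part of all 13.

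The listed levels of the copies did not follow the extent of the shared sequence. Gm29216, which holds the end of mt-Co1, was listed at 4256 TPM (Tom-) and 7118 TPM (Tom+) in tumor #1, against 11736 and 12815 TPM in tumor #2, more than mt-Co1 itself in every library. Gm28438, the copy of mt-Nd3, was at 1993 and 2457 TPM in tumor #1, against 2548 and 3179 TPM in tumor #2. It took 54.6% and 60.1% of the sum with mt-Nd3 in tumor #1 and 44.2% and 53.2% in tumor #2. Gm28439 (chr1:24611535-24612410), identical to the first 876 bases of mt-Nd4, took 24.9%, 22.6%, 22.0% and 22.7% of their sum in the same order of libraries.

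A copy of mt-Atp6 and 1 of the 2 copies of mt-Co2 went against their members in both tumors and both fractions. Gm10925 (chr1:24613974-24614651) is identical to 678 bases of mt-Atp6, and was at 572 TPM (Tom-) and 329 TPM (Tom+) in tumor #1, against 161 and 8.12 TPM in tumor #2. Gm28661 (chr1:24614885-24615565), identical to 681 bases of mt-Co2, was at 54.2, 47.4, 20.7 and 0.464 TPM in that order. Both were lower in Tom+ cells and lower in tumor #2, whereas mt-Atp6 and mt-Co2 were higher, and neither passed limma's test (fitted differences -2.47, SE 0.945, and -2.04, SE 1.05, adjusted p = 0.936 for both). Gm28437, identical to 783 bases of mt-Co3, did not exceed 0.275 TPM, and Gm10222, identical to 294 bases of mt-Nd4l, was listed at 0 in all libraries. Gm13340 on chromosome 2, which matches the whole of mt-Co1 at 97.6%, was at 5.33 to 10.6 TPM. Gm13341, the other copy of mt-Co2, was at 3.57, 5.29, 3.48 and 2.14 TPM (Tom- then Tom+ of tumor #1, then of tumor #2). It was higher in Tom+ cells of tumor #1, as mt-Co2 was. Unlike mt-Co2, it was lower in Tom+ cells of tumor #2, and lower in tumor #2 in both fractions.

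**Figure D4:**
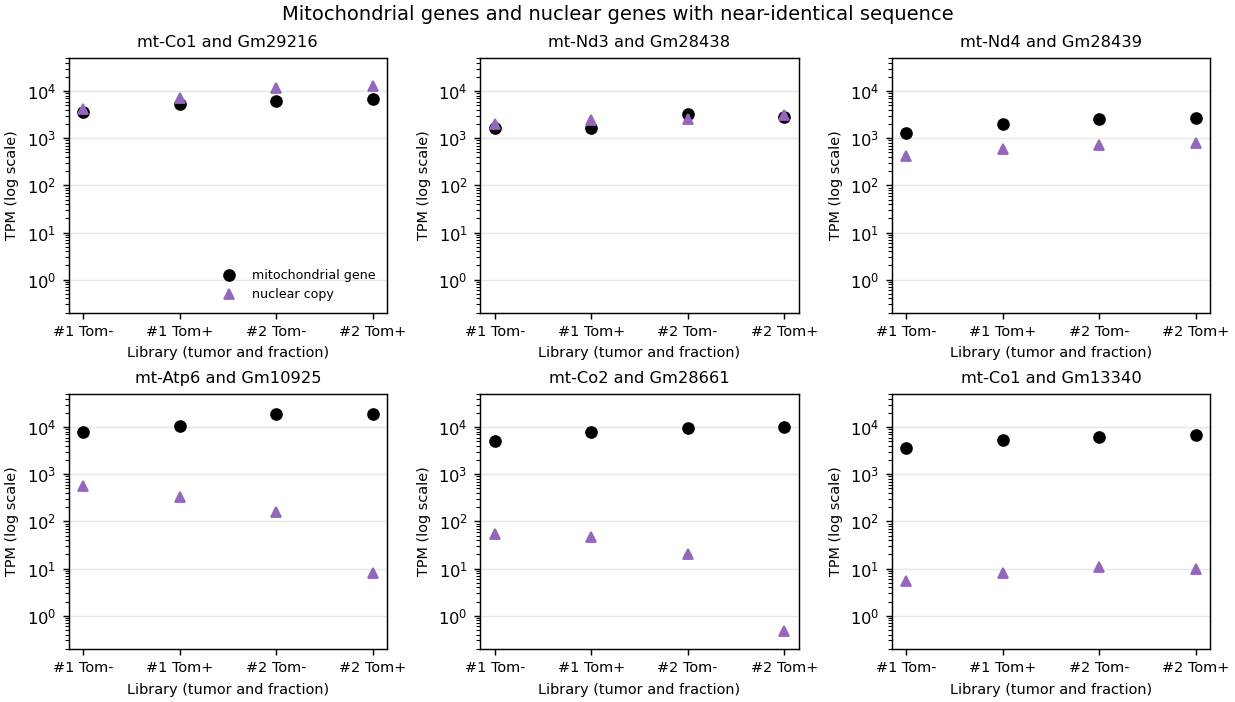
TPM on a log scale (vertical axis) of mitochondrial genes (black circles) and of the nuclear pseudogenes with near-identical sequence that reached 10 TPM (purple triangles) in the 4 libraries (horizontal axis, tumor and fraction). Gm29216 lies above mt-Co1 in every library, and Gm10925 and Gm28661 go down to 8.12 and 0.464 TPM in Tom+ cells of tumor #2.

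The respiratory chain is built from both genomes, so the nuclear subunits were described beside the members, from lists of textbook members. None of the 71 nuclear subunits of complexes I, III, IV and ATP synthase passed the adjusted threshold in limma, where 0% of all genes did, and at an unadjusted p under 0.05 there was 1, Atp5j. In both tumors alike, Tom+ cells had the higher value for 6 of the 71 and the lower value for 18, beside 21.6% and 29.5% of all genes. Their median difference was 0.06 in tumor #1 and -0.20 in tumor #2, below the medians of 0.58 and 0.07 of the mitochondrially encoded mRNAs in both. Between the tumors 54 of 71 were lower and 5 higher in tumor #2 in both fractions, beside 27.5% of all genes lower and 49.6% higher. The medians were -0.20 in Tom- and -0.39 in Tom+ cells, against 0.94 and 0.39 for the mRNAs from chrM. The 821 protein-coding genes with a mean of at least 100 TPM also had medians below 0, of -0.14 and -0.26, with 449 lower and 223 higher in both fractions of tumor #2. Under the 5 other scalings the nuclear medians between tumors stayed negative, from -0.07 to -0.39 in Tom- and from -0.28 to -0.54 in Tom+ cells. The summed TPM of the nuclear subunits was 14922 (Tom-) and 15467 (Tom+) in tumor #1, against 12844 and 11457 in tumor #2.

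By complex, Tom+ cells were above Tom- cells in both tumors for 4 of 36 nuclear complex I subunits and below them in both for 11, beside 21.6% and 29.5% of all genes. The largest fitted differences were those of Ndufa12, at 291, 243, 337 and 130 TPM (Tom- then Tom+ of tumor #1, and likewise for tumor #2), and Ndufv3, at 52.3, 41.9, 39.9 and 24.3 TPM. Both accessory subunits were lower in the Tom+ fraction of each tumor. In complex III, 0 of 9 lay above and 3 below in both tumors, and the Rieske iron-sulfur protein gene Uqcrfs1 was at 78.2, 77.3, 28.97 and 57.8 TPM and Uqcr11 at 90.9, 78.2, 64.4 and 40.0 TPM. In complex IV, 1 of 11 lay above and 1 below, with Cox7c at 104, 112, 46.0 and 16.8 TPM and Cox7a2 at 219, 223, 231 and 162 TPM.

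Among the 15 nuclear ATP synthase subunits, Tom+ cells were above Tom- cells in both tumors for 1 and below them for 3, with the same shares of all genes as background. Atp5j, a subunit of the stalk, was at 581 TPM (Tom-) and 420 TPM (Tom+) in tumor #1, against 451 and 368 TPM in tumor #2 (fitted difference -0.38, SE 0.122, unadjusted p = 0.0487, adjusted p = 0.936 by limma). Atp5g2, which encodes the ring subunit c, was at 3.53 and 11.1 TPM in tumor #1, against 18.4 and 11.8 TPM in tumor #2, in opposite directions. Complex II has no mitochondrially encoded subunit, and 0 of its 4 subunits lay above and 2 below, with the flavoprotein gene Sdha at 579, 531, 326 and 196 TPM and Sdhd at 103, 105, 85.0 and 63.6 TPM. The median of complex II between tumors was -0.55 in Tom- and -0.77 in Tom+ cells.

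**Figure D5:**
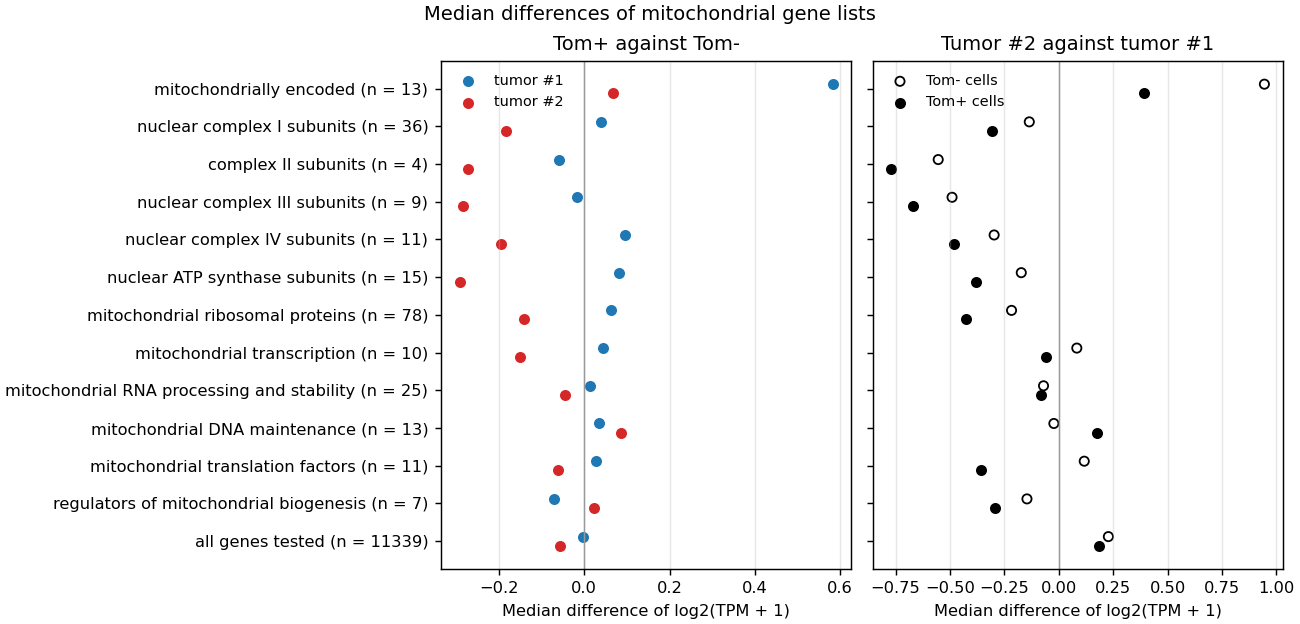
Median difference of log2(TPM + 1) over the tested genes of each list. Left, Tom+ against Tom- cells in tumor #1 (blue) and tumor #2 (red). Right, tumor #2 against tumor #1 in Tom- cells (open) and Tom+ cells (filled). The mitochondrially encoded mRNAs lie at 0.58 in tumor #1, at 0.07 in tumor #2, and at 0.94 and 0.39 between tumors. The nuclear subunits of the same complexes lie near 0 or below in each panel.

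The machinery that copies, transcribes and translates the mitochondrial chromosome showed no adjusted call either. Tom+ cells were above Tom- cells in both tumors for 3 of 10 genes of mitochondrial transcription and below them for 4, beside 21.6% and 29.5% of all genes, and the termination factor family member Mterf2 was at 20.0 TPM (Tom-) and 9.25 TPM (Tom+) in tumor #1, against 17.97 and 12.5 TPM in tumor #2 (-0.76, SE 0.228, unadjusted p = 0.0402, adjusted p = 0.936 by limma). Its relative Mterf1a was at 4.28, 3.84, 8.83 and 5.05 TPM. Of 25 genes for RNA processing and stability that had values, 6 lay above and 7 below in both tumors. The ribosomal RNA methyltransferase genes Mrm1, at 20.6, 9.07, 5.63 and 4.65 TPM, and Mrm3, at 11.4, 7.75, 6.70 and 4.201 TPM, had the largest differences there and both were lower in the Tom+ fraction of each tumor.

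For 6 of 13 genes that maintain mitochondrial DNA the Tom+ value was the higher in both tumors, and for 2 it was the lower, beside 21.6% and 29.5% of all genes. Primpol, a primase and polymerase of nucleus and mitochondria, was at 2.43 TPM (Tom-) and 4.27 TPM (Tom+) in tumor #1, against 10.2 and 27.8 TPM in tumor #2 (0.99, SE 0.281, unadjusted p = 0.0346, adjusted p = 0.936 by limma). Tk2, the mitochondrial thymidine kinase, was at 22.3 and 8.07 TPM in tumor #1, against 20.4 and 13.1 TPM in tumor #2 (-0.98, SE 0.271, unadjusted p = 0.0323). These genes thus stood in opposite directions, each the same in both tumors.

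Among 78 mitochondrial ribosomal protein genes the Tom+ value was the higher in both tumors for 14 and the lower for 19, beside 21.6% and 29.5% of all genes, with a median of 0.06 in tumor #1 and -0.14 in tumor #2. Mrpl52 was at 186, 150, 195 and 92.3 TPM and Mrpl2 at 172, 148, 266 and 125 TPM in the same order of libraries. Both were lower in the Tom+ fraction of each tumor. Of 11 translation factor genes 2 lay above and 1 below, with the release factor gene Mtrf1 at 2.52, 2.58, 3.37 and 1.57 TPM and the ribosome recycling factor gene Mrrf at 13.7, 14.95, 17.5 and 10.5 TPM.

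Of 8 regulators of mitochondrial biogenesis, 7 had enough signal to be tested, and the Tom+ value was the higher in both tumors for 3 and the lower for 3, beside 21.6% and 29.5% of all genes. Pprc1, a coactivator of the PGC-1 family, was at 48.2 TPM (Tom-) and 53.0 TPM (Tom+) in tumor #1, against 112 and 147 TPM in tumor #2. The orphan nuclear receptor gene Esrra was at 4.58, 3.82, 4.199 and 2.94 TPM. None of the 13 mRNAs, the nuclear subunits or the genes of these lists can be said from 2 tumors to differ between Tom+ and Tom- cells beyond the spread between pairs.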

How the data were processed

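The 4 libraries were made from sorted spleen cells and sequenced as single reads of 60 bases. Per the methods and the submitters' processing notes, the authors used CASAVA 1.8, FastQC, Cutadapt and Salmon 1.9 on the GRCm38 transcriptome, and deposited 1 table of TPM per gene (34866 genes). TPM keeps no read number, so depth is unknown and counting error has no interval here. Salmon estimates how reads that fit several transcripts are divided. Symbols and positions came from GENCODE M21 (34652 identifiers matched), and the annotation release behind the TPM, which decides which pseudogenes could receive reads, is uncertain.

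The scale was log2(TPM + 1), over the 11339 genes that reached 1 TPM in 2 or more libraries, and it understates changes of low genes. Tom+ and Tom- cells were compared with limma 3.58.1 in R 4.3.3 (two-sided, variance trend, Benjamini-Hochberg over all genes tested), with the tumor as block because both libraries of a tumor are from 1 mouse. Deviations of these libraries from the group means correlated across genes (Pearson's r = 0.626). The authors' test of counts, by edgeR, could not be run on TPM. The fit was also run on simulated data with less noise than here and larger changes than those of the members, which does not show its power in these data. Nuclear copies were found with blastn 2.17.0.

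Named were all 13 members, nuclear copies with at least 10 TPM in a library, and the 2 genes of each list with the largest fitted change. Gm28437, Gm10222 and Gm13341, which fall below 10 TPM, were named after their values were seen. The members and lists were chosen with earlier results of these data known. Alternatives covered pseudocounts, filters, scalings, totals, the block, the trend and left-out libraries. Leaving out mt-Atp8 and weighting by annotated length were chosen after seeing the data. Some items, 2 of the cell type markers among them, are not reported here.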

Additional observations from a re-analysis of the deposited data

Results flagged for a closer look

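The difference of mt-Nd1 between Tom+ and Tom- cells had opposite signs in the tumors, 0.58 on the log2 scale in tumor #1 and -0.02 in tumor #2, and with 1 pair per tumor the difference between tumors was not tested. The sign in tumor #2 depended on the scaling of the libraries: mt-Nd1 was at 0.04 with trimmed-mean scaling and at -0.10 with quantile normalization.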

How the results depend on the processing

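No gene passed an adjusted p of 0.05 in limma under any alternative. With 1 library of each fraction per tumor, dropping the replicate block cannot change the fitted differences, so the median of the members was again 0.30. Genes at an unadjusted p under 0.05 in limma then numbered 140 in place of 530. Across scalings, totals, pseudocounts and filters that median lay between 0.30 and 0.34, though filters cannot move it and pseudocounts hardly do at these levels. Leaving out 1 tumor gave 0.07 (without tumor #1) to 0.58 (without tumor #2) for the median and 1.16 to 2.05 points for the share of the library. The share difference of 1.61 points was 2.76 among protein-coding genes and 0.91 without mt-Atp8. The part of mt-Atp8 in the pool, 46.7% on average, was 17.9% by TPM multiplied by length. Genes 2-fold apart between tumors numbered 1695, or 1015 at a mean TPM of at least 5, where fewer genes are counted. Members higher in Tom+ cells of both tumors numbered 12 under trimmed-mean scaling, without mitochondrial or immunoglobulin genes in the total, among protein-coding genes and with copies summed, and 6 under quantile normalization, which sets equal the highest ranks, with mt-Atp8 at 0 in every contrast. With copies added, mt-Nd3 turned from -0.11 to 0.11, both summed (0.107) and weighted by length (0.106).

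Fits that leave out 1 library drop the block, so the lone library stands against both tumors and is assumed to vary like the others. Together with the left-out tumors, the ranges were -0.086 to 0.64 for mt-Nd1 (-0.018 without tumor #1), 0.02 to 0.58 for mt-Nd2, -0.025 to 0.78 for mt-Co1, -0.11 to 0.81 for mt-Co2, -0.50 to 0.90 for mt-Atp8 (-0.46 without Tom+ cells of tumor #2), -0.39 to 0.86 for mt-Atp6 (-0.19 without the same library), 0.04 to 0.33 for mt-Co3, -0.59 to 0.37 for mt-Nd3 (0.28 without Tom+ cells of tumor #1), -0.12 to 0.61 for mt-Nd4l, -0.12 to 0.88 for mt-Nd4, -0.15 to 0.86 for mt-Nd5, -0.011 to 0.93 for mt-Nd6 and -0.22 to 0.89 for mt-Cytb. Of 247 single-gene values under alternatives, 229 kept their sign and 17 reversed, 2 of these with all libraries in the fit. Some alternatives could not change a sign, so the count of those kept does not measure how firm the directions are. Dropping the block or the trend and changing the filter leave a member's fitted difference as it is, and pseudocounts hardly move it at these levels. Leaving out ribosomal RNA genes gave no value, since none was analysed here.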
